A study of Mus musculus with 6 samples.

Results

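Chromatin modifiers and remodellers are the proteins that place, remove or read chemical marks on histones and DNA, or that move nucleosomes with the energy of ATP. The genes described here were chosen by name: a row of the deposited table was taken when 1 of its gene names began with Smarc, Chd, Arid, Brd, Kdm, Setd, Mll, Suv, Ezh, Prmt, Hdac, Sirt, Dnmt or Tet in the form of those families. Where a symbol had several rows, the row with the highest summed value was kept. This gave 90 genes of 37867 gene models, of which the authors tested 83 of 13834. The other 7 (Chd7, Chd5, Arid3c, Smarcd3, Dnmt3l, Prmt8 and Smarca1) stood at 0.205 FPKM or less in either genotype and were not tested. No row carried a Kdm or Tet symbol, since the table lists those genes under older names, and they are described after the members.

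The RNA came from double-positive thymocytes, the CD4+ CD8+ stage of T cell development, sorted from mice without the microRNA genes mir181a1/b1 (KO) and from wild type mice (WT), both of the C57bl6 strain. There were 3 libraries of each genotype. The table gives 1 pooled value per genotype in FPKM (fragments scaled to transcript length and library size), so SDs, depths and single-library values are unknown here. The labels name neither age nor sex, and do not say whether the libraries of a genotype came from separate animals. RNA was extracted with 1 of 2 kits, and which library had which is not said, so its part in the results was not tested. In a bulk sample, fewer cells of a type and less RNA per cell cannot be told apart.

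In thymocytes, SWI/SNF (BAF) complexes built around the ATPase Smarca4 open chromatin at lineage genes, and the CHD ATPase Chd4 works in the NuRD complex together with the deacetylases Hdac1 and Hdac2. Methyltransferases of the Mll, Setd and Ezh families write marks of active or silent chromatin on histone H3, and Kdm proteins remove them. Dnmt1 copies DNA methylation at replication, while Tet enzymes oxidise it. MicroRNAs act by pairing their seed with sites in the 3′ UTRs of transcripts, which lowers the level or the translation of those transcripts.

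The mature microRNAs that the deleted genes encode share 1 seed, and their sequences are shown because a match to the seed in a 3′ UTR is the usual kind of target site. Sites in coding sequence or without a seed match were not searched. The sequences are those of RefSeq (GRCm38.p6, chromosome 1, plus strand, 137966468 to 137966490 for miR-181a-5p and 137966650 to 137966673 for miR-181b-5p), with bases 2 to 8, the seed, in capitals.
mmu-miR-181a-5p: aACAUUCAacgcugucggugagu
mmu-miR-181b-5p: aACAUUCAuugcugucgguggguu

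Matches were searched on the sense strand of the 3′ UTR of 1 reference transcript per gene, as TGAATGTA (8mer), TGAATGT (7mer-m8) or GAATGTA (7mer-A1), with an 8mer counted once. Among 79 members with a mean of at least 1 FPKM, 15 held a match (19.0%), against 21.8% of 8841 tested coding genes. The members had 0.191 matches per kilobase of 3′ UTR and all those genes 0.197. The median 3′ UTR length was 1078 bases in the members and 998 bases in all those genes. Smarca4 and Smarca5, ATPases of the SWI/SNF and ISWI remodellers, and Mll1, a histone H3 lysine methyltransferase, held 3 matches each, and Chd2 held a pair. The sites below are shown because these genes hold the most matches among the members, and Sirt1 because it is the sirtuin that holds one, at bases 68 to 74 of its 3′ UTR. Capitals mark the match to the seed.
Smarca4 first site, chr9:21703901-21703907 plus strand: gccctcacataTGAATGTgtatatataca
Smarca4 second site, chr9:21703964-21703970 plus strand: acatttttgtgTGAATGTtttgcctgaat
Smarca4 last site, chr9:21703977-21703983 plus strand: aatgttttgccTGAATGTgtgtgtgtgtg
Mll1 first 8mer, chr9:44804563-44804570 minus strand: aaatcttttaaTGAATGTAtctttctaaag
Mll1 second 8mer, chr9:44803479-44803486 minus strand: ctacgaaagacTGAATGTAaaagtaaaaag
Smarca5 8mer, chr8:80698587-80698594 minus strand: gttaaatggaaTGAATGTAacaactttaag
Sirt1 site, chr10:63320562-63320568 minus strand: atgtcaaaaaaTGAATGTttacttgtgaa
These positions are in GRCm38, read from GENCODE M21. A match is only a match of letters and was not tested as a site of regulation.

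Of the 15 members with a seed match, none was called higher in KO and 1, Smarca4, was called lower. Of all 1928 genes with a match, 3.53% were called higher and 7.62% lower, so the members' counts are near the background. Among these members, 8 had a positive and 7 a negative log2 ratio (KO over WT). Mll1 stood at 44.3 FPKM in KO and 33.4 FPKM in WT, a log2 ratio of 0.41 with a standard error (SE) of 0.21, derived here and below as log2 ratio over deposited test statistic (q = 0.199 in the authors' deposited table). Smarca5 stood at 12.2 FPKM in KO and 10.9 FPKM in WT (log2 ratio 0.17, SE 0.25, q = 0.761 in the authors' deposited table). Sirt1, a nuclear deacetylase that uses NAD, stood at 19.7 FPKM in KO and 14.7 FPKM in WT (log2 ratio 0.42, SE 0.25, q = 0.287 in the authors' deposited table). Among the members the median log2 ratio was 0.03 with a match and -0.32 without, and 0.07 with and -0.35 without among all those genes. Transcripts with a match were lower in GC content, with a median of 47.9% against 51.7% in the members. After removal of the trend of the ratio with GC content and length, described below, the medians of the members were -0.04 with a match and 0.07 without. Over all those genes they were 0.05 with a match and -0.02 without, the opposite order, and neither difference was tested.

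The defining markers of double-positive thymocytes were present in both genotypes. The 8 double-positive markers summed to 5199 FPKM in KO and 5556 FPKM in WT, with none at 0. The 4 B cell markers summed to 0.242 FPKM in KO and 0.336 FPKM in WT. The 5 myeloid and dendritic markers summed to 2.81 FPKM in KO and 4.93 FPKM in WT, with Cd14 at 0 in both. The 5 markers of thymic epithelium summed to 0.959 FPKM in KO and 2.37 FPKM in WT, nearly all of it Epcam, with Foxn1 at 0 in KO. The 3 erythroid markers found summed to 0.670 FPKM in KO and 1.35 FPKM in WT. Of these markers of other cells, Epcam and the myeloid marker Itgam were called lower in KO (q = 0.00844 and 0.0413 in the authors' deposited table). Lyz2 and Hbb-b1 did not pass (q = 0.432 and 0.339 in the same table), and the rest were too low to be tested there. The part of these other cells in the results below was not tested. The model over the deleted microRNA genes, listed as AK076660 on chromosome 1 from 139794044 to 139874930 (mm9), had 156 FPKM in KO and 3.35 FPKM in WT. It was thus 46.6-fold higher in KO (log2 ratio 5.54, SE 0.27, called in the authors' deposited table). The value is for the whole model, and whether it includes reads from the deleted stretch is not known here, so it was not used as a check of the labels. FPKM over all models summed to 297352 in KO and 360688 in WT.

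Of the 83 tested members, 15 were lower in KO by a q below 0.05 in the authors' deposited table, none was higher and 68 did not pass. This is 18.1% of the tested members called lower, where 15.3% of all tested models were called lower and 1.79% higher (17.1% either way). Of the 8960 coding genes of at least 1 FPKM with a usable reference transcript, 19.3% were lower and 1.60% higher. The share of members is thus near the background. With ratios centred on the median of all tested models, 9 members were lower and 2 higher (Mll3 and Mll5), against 10.8% and 3.6% of those models. The 6 members that lost the call with centring were Smarcd1, Smarcd2, Sirt2, Mll2, Hdac10 and Setd6, with adjusted p values of 0.0688 to 0.119. At an unadjusted p under 0.05 in the same table, 23 members were lower and 2 were higher (Mll3 and Mll5), against 22.7% and 4.76% of all tested models. The median log2 ratio of the tested members was -0.28, with a range from -1.93 to 0.72. The median of all tested models was -0.17. The ratio was negative in 54 members and positive in 29, and 27 lay within 1 SE of 0. The members that passed were 3 of the Smarc family, 3 of Setd, 3 of Hdac, 3 of Sirt and 1 each of Mll, Suv and Prmt. No tested member of the Chd, Arid, Brd, Ezh or Dnmt families passed. At an unadjusted p under 0.05 in the authors' deposited table, 2 Arid genes and 1 Brd gene were lower.

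**Figure D1:**
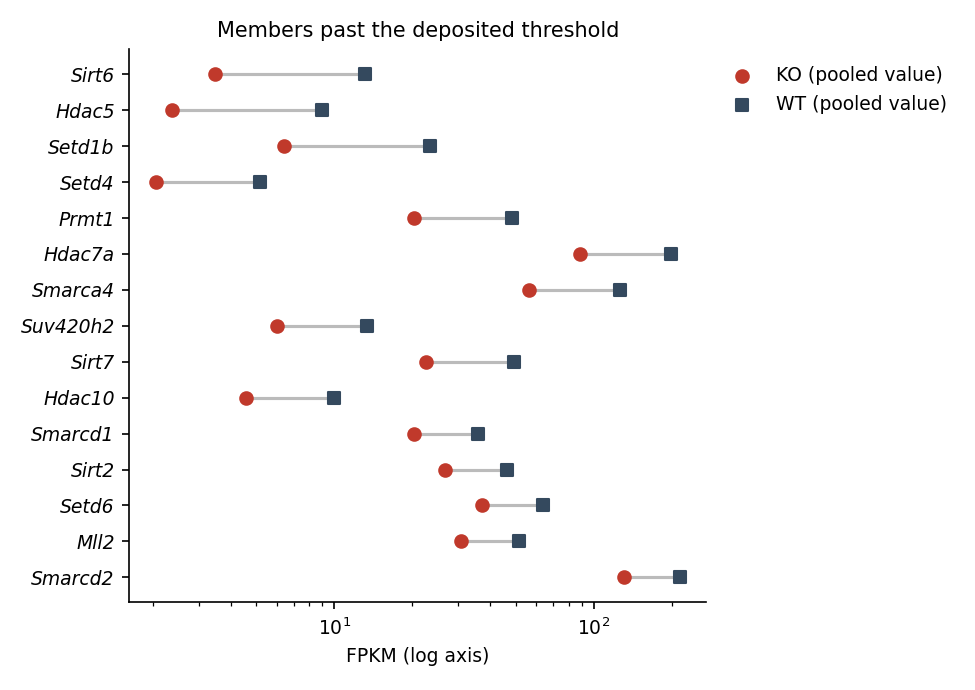
FPKM (log axis) of the 15 members called at q 0.05 in the authors' deposited table, as 1 pooled value per genotype, KO as circles and WT as squares, ordered by log2 ratio with the most negative at the top. In each of them the KO circle lies left of the WT square, from Sirt6 at 3.45 against 13.2 FPKM at the top to Smarcd2 at 131 against 215 FPKM at the bottom.

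The members lower in KO included 1 ATPase of the SWI/SNF complex. Smarca4 (BRG1), its main ATPase in these cells, stood at 56.4 FPKM in KO and 126 FPKM in WT. It was thus 2.24-fold lower, a log2 ratio of -1.16 with an SE of 0.23 (q = 2.14e-05 in the authors' deposited table). The gene lies on chromosome 9 from 21420612 to 21507811 (mm9). Smarcd2 and Smarcd1, accessory subunits that link the complex to transcription factors, fell as well. Smarcd2, the most abundant member in WT, stood at 131 FPKM in KO and 215 FPKM in WT (log2 ratio -0.71, SE 0.22). Smarcd1 stood at 20.4 FPKM in KO and 35.7 FPKM in WT (log2 ratio -0.81, SE 0.26). Smarcd2 and Smarcd1 had a q of 0.0129 and 0.0135 in the authors' deposited table.

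Other subunits of the complex did not pass. Smarca2 (BRM), the alternative ATPase, stood at 23.0 FPKM in KO and 18.6 FPKM in WT (q = 0.561 in the authors' deposited table). The level of Smarca4 was 2.45 times that of Smarca2 in KO and 6.77 times in WT, a difference that was not tested. The scaffold subunit Smarcc1 stood at 47.9 FPKM in KO and 44.1 FPKM in WT, and its paralogue Smarcc2 at 53.5 FPKM in KO and 75.1 FPKM in WT (q = 0.855 and 0.124 in the authors' deposited table). Arid1a, the DNA-binding subunit of the BAF form, stood at 75.3 FPKM in KO and 104 FPKM in WT (q = 0.131 in the authors' deposited table). Arid1b stood at 9.71 FPKM in KO and 16.7 FPKM in WT, and Arid2 of the PBAF form at 43.0 FPKM in KO and 49.9 FPKM in WT (q = 0.280 and 0.602 in the authors' deposited table). Arid4a, a subunit of Sin3 deacetylase complexes, had the most positive ratio of the Arid family, at 62.1 FPKM in KO and 43.0 FPKM in WT (q = 0.285 in the authors' deposited table). Over the Smarc family, 3 of 11 tested members were lower (27.3%) and the median log2 ratio was -0.49. Of all tested models 15.3% were lower, with a median of -0.17. After removal of the trend with GC content and length, described below, the Smarc median was 0.06 and no Smarc gene was called. Over the Arid family, none of 9 passed and the median was -0.21.

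The Chd remodellers had mostly positive ratios, and none of 8 tested passed. Chd4, the NuRD ATPase and the third most abundant member in either genotype, stood at 131 FPKM in KO and 154 FPKM in WT (log2 ratio -0.24, SE 0.22, q = 0.559 in the authors' deposited table). Chd1, which binds methylated histone H3, stood at 108 FPKM in KO and 83.7 FPKM in WT (q = 0.336 in the authors' deposited table). Chd9 had the most positive ratio of the family, at 26.5 FPKM in KO and 16.4 FPKM in WT, a log2 ratio of 0.69 with an SE of 0.45 (q = 0.336 in the authors' deposited table). Chd1l, a remodeller of DNA repair, had the most negative, at 12.0 FPKM in KO and 15.5 FPKM in WT (q = 0.411 in the authors' deposited table). The family median was 0.22, with 5 of 8 ratios positive.

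**Figure D2:**
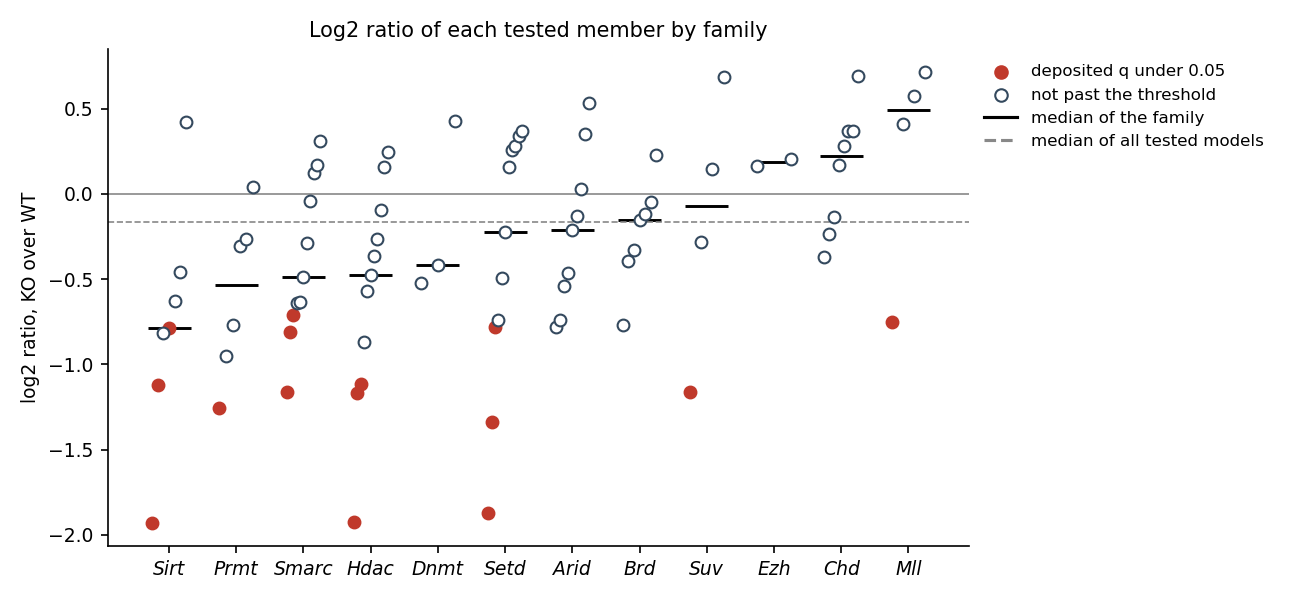
Log2 ratio (KO over WT) of each of the 83 tested members by family, with filled points for members called at q 0.05 in the authors' deposited table, a bar at each family's median, a solid line at 0 and a dashed line at the median of all tested models (-0.17). The medians as deposited run from -0.79 in the Sirt family to 0.49 in the Mll family, and all filled points lie below the dashed line. With the trend of GC content and length removed, these medians were 0.06 and 0.44 (3 Mll genes in the fit).

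The deacetylases that passed belong to classes II and III. Hdac7a (Hdac7), a class IIa deacetylase expressed at a high level in double-positive thymocytes, where it shuttles between nucleus and cytoplasm, stood at 88.7 FPKM in KO and 199 FPKM in WT. The log2 ratio came to -1.17 with an SE of 0.24 (q = 4.70e-05 in the authors' deposited table). Hdac5, of the same class, stood at 2.37 FPKM in KO and 8.97 FPKM in WT, 3.79-fold lower (log2 ratio -1.92, SE 0.41, q = 6.73e-05 in the authors' deposited table). Hdac10, of class IIb, stood at 4.58 FPKM in KO and 9.94 FPKM in WT, just inside the threshold (q = 0.0494 in the authors' deposited table). The class I enzymes did not pass. Hdac1 stood at 22.0 FPKM in KO and 28.4 FPKM in WT, Hdac2 at 83.4 FPKM in KO and 74.7 FPKM in WT, and Hdac3 at 37.5 FPKM in KO and 45.1 FPKM in WT (q = 0.389, 0.757 and 0.545 in the authors' deposited table). Hdac9 had the most positive ratio of the family but was close to absent, at 0.326 FPKM in KO and 0.274 FPKM in WT. Over 11 Hdac genes 3 were lower (27.3%) and the median log2 ratio was -0.48, against 15.3% and -0.17 for all tested models. After removal of the trend with GC content and length, described below, the median of the 10 in the fit was -0.08 and none was called.

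Among the 7 sirtuins, deacetylases that depend on NAD, Sirt6, Sirt7 and Sirt2 were lower in KO. Sirt6, a chromatin-bound enzyme of DNA repair, had the most negative ratio of all members, at 3.45 FPKM in KO and 13.2 FPKM in WT (log2 ratio -1.93, SE 0.53, q = 0.00299 in the authors' deposited table). Sirt7, a nucleolar enzyme, stood at 22.6 FPKM in KO and 49.2 FPKM in WT (log2 ratio -1.12, SE 0.33). Sirt2, which is mainly cytoplasmic, stood at 26.7 FPKM in KO and 46.1 FPKM in WT (log2 ratio -0.79, SE 0.27). These had a q of 0.00606 and 0.0257 in the authors' deposited table. The family median, -0.79, was the lowest of the 12 families, and only Sirt1 had a positive ratio. The median GC content of the sirtuin transcripts, 54.8%, was the highest of the 12 families. After removal of the trend with GC content and length, described below, the family median was 0.06 and no sirtuin was called.

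Of the Mll (KMT2) methyltransferases, Mll2 was lower in KO and the others had positive ratios. Mll5, which has a SET domain but is not known as an active enzyme, was the most abundant member in KO, at 178 FPKM in KO and 108 FPKM in WT. Its log2 ratio of 0.72, with an SE of 0.28, was the highest of all members and did not pass (q = 0.0620 in the authors' deposited table). Mll3 stood at 50.4 FPKM in KO and 33.9 FPKM in WT (log2 ratio 0.57, SE 0.27, q = 0.131 in the authors' deposited table). Mll2 stood at 30.7 FPKM in KO and 51.7 FPKM in WT (log2 ratio -0.75, SE 0.23, q = 0.0124 in the authors' deposited table). Its model, on chromosome 15 from 98664115 to 98674696 (mm9), spans 10.6 kilobases, while the reference transcript of Kmt2d, the gene that the name and chromosome match, is 19.8 kilobases long. The value therefore covers a part of that gene.

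Among the SET domain genes, Setd1b had the smallest q of all members. Setd1b, a methyltransferase of histone H3 lysine 4, stood at 6.40 FPKM in KO and 23.4 FPKM in WT, 3.66-fold lower (log2 ratio -1.87, SE 0.29, q = 1.36e-08 in the authors' deposited table). That model lies on chromosome 5 from 123602626 to 123611138 (mm9). It spans 8.51 kilobases, while the reference transcript is 8.86 kilobases long, so its value covers a part of the gene. A second Setd1b model, from 123592201 to 123599990, stood at 7.16 FPKM in KO and 16.2 FPKM in WT (log2 ratio -1.18, q = 0.000441 in the authors' deposited table), so both were lower. Its paralogue Setd1a stood at 14.1 FPKM in KO and 23.6 FPKM in WT, just outside the threshold (q = 0.0554 in the authors' deposited table), in a row that also names its neighbour Hsd3b7. Setd4 stood at 2.05 FPKM in KO and 5.17 FPKM in WT (log2 ratio -1.34, SE 0.41, q = 0.00961 in the authors' deposited table). Setd5 had the most positive ratio of the family, at 49.6 FPKM in KO and 38.3 FPKM in WT (q = 0.362 in the authors' deposited table). Setd2, which methylates histone H3 lysine 36, was the most abundant of them in KO, at 60.2 FPKM in KO and 54.0 FPKM in WT (q = 0.816 in the authors' deposited table).

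The call of Setd6 depends on the row. The row with the highest value is listed as BC067047 and Setd6 on chromosome 2 from 166389962 to 166539332 (mm9), at 37.2 FPKM in KO and 63.8 FPKM in WT (log2 ratio -0.78, q = 0.0117 in the authors' deposited table). RefSeq places Setd6 on chromosome 8, and the row listed there as Setd6 alone, from 98196037 to 98242904 (mm9), stood at 7.32 FPKM in KO and 7.01 FPKM in WT (log2 ratio 0.06, q = 0.977 in the authors' deposited table). With that row 14 members were lower.

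Of the remaining histone methyltransferases, 1 Suv gene and 1 Prmt gene were lower and no Ezh gene passed. Suv420h2 (Kmt5c), a writer of histone H4 lysine 20 methylation, was lower at 5.99 FPKM in KO and 13.4 FPKM in WT (log2 ratio -1.16, SE 0.36, q = 0.0127 in the authors' deposited table). Its paralogue Suv420h1 was higher in level, at 54.7 FPKM in KO and 49.5 FPKM in WT, and did not pass (q = 0.801 in the authors' deposited table). Suv39h2, a writer of histone H3 lysine 9 methylation, stood at 4.69 FPKM in KO and 2.92 FPKM in WT (q = 0.472 in the authors' deposited table). Ezh2, the catalytic subunit of Polycomb repressive complex 2, stood at 112 FPKM in KO and 97.3 FPKM in WT, and Ezh1 at 13.7 FPKM in KO and 12.3 FPKM in WT. Neither passed (q = 0.680 and 0.802 in the authors' deposited table). The level of Ezh2 was 8.17 times that of Ezh1 in KO and 7.94 times in WT. Prmt1, the main arginine methyltransferase, was lower at 20.2 FPKM in KO and 48.3 FPKM in WT (log2 ratio -1.26, SE 0.32, q = 0.00139 in the authors' deposited table). The other 5 tested Prmt genes did not pass, among them Prmt3 with the most positive ratio, at 5.89 FPKM in KO and 5.74 FPKM in WT.

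The bromodomain readers and the DNA methyltransferases did not pass. Brd2 stood at 90.5 FPKM in KO and 114 FPKM in WT (q = 0.365 in the authors' deposited table). Brd3 had the most negative ratio of the family, at 42.4 FPKM in KO and 72.2 FPKM in WT (q = 0.0995 in the authors' deposited table), and Brd8 the most positive, at 46.0 FPKM in KO and 39.2 FPKM in WT. Dnmt1 stood at 70.8 FPKM in KO and 102 FPKM in WT (log2 ratio -0.52, SE 0.31, q = 0.283 in the authors' deposited table). Dnmt3a, a de novo methyltransferase, stood at 14.3 FPKM in KO and 19.1 FPKM in WT, and Dnmt3b at 0.747 FPKM in KO and 0.556 FPKM in WT (q = 0.312 and 0.682 in the authors' deposited table). The architectural factor Satb1, which is outside the families but organises chromatin in thymocytes, stood at 1118 FPKM in KO and 1310 FPKM in WT (q = 0.610 in the authors' deposited table).

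The ratio of the members followed the base composition of their transcripts. Over 81 tested members with a usable reference transcript, Spearman's rho between the log2 ratio and GC content was -0.81 and Pearson's r was -0.80. This is a description across genes that share the same libraries, and over 8960 coding genes the same rho was -0.76. The members called lower had a GC content of 54.7% to 60.9% (median 57.2%, 13 members with a reference transcript), and the members that did not pass had 40.7% to 57.7% (median 50.1%, 68 members). With those 8960 genes sorted into 3 groups of nearly equal size by GC, the group with the lowest GC held 16 members with none called lower, and the middle group held 34 with none called lower. The group with the highest GC held 31 members, of which 13 were lower (41.9%), against 48.9% of all genes in that group. The median log2 ratio of the members was 0.29, -0.14 and -0.77 from the lowest to the highest GC group, and that of all genes 0.18, -0.21 and -0.89. The reference transcripts of the members were longer, with a median of 4320 bases against 2962.5 bases in all those genes.

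**Figure D3:**
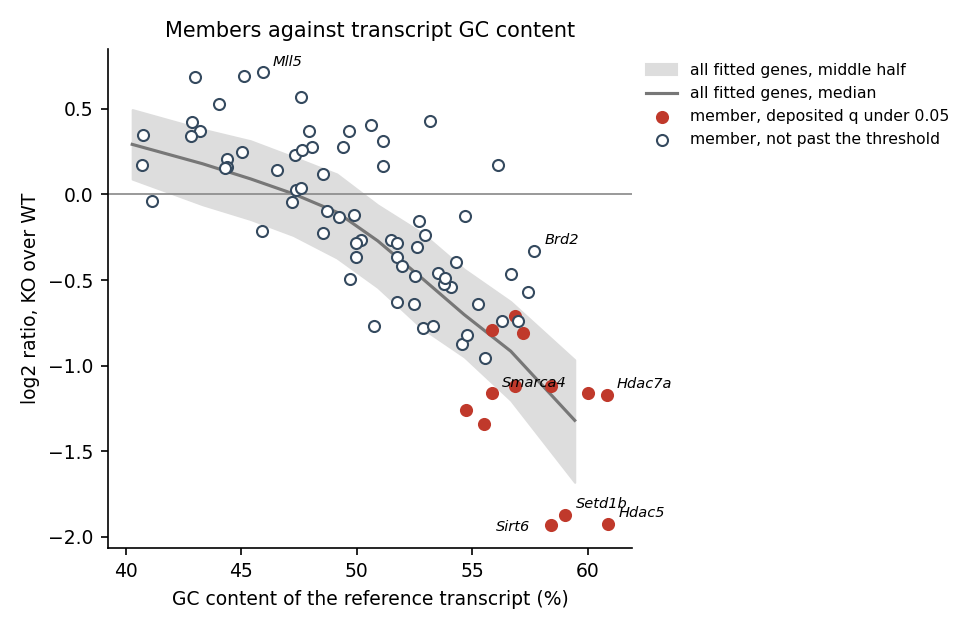
Log2 ratio (KO over WT) of the 81 tested members with a usable reference transcript against its GC content in percent, filled for members called at q 0.05 in the authors' deposited table. The line and band give the median and middle range (first to last quartile) of 8960 coding genes in 10 groups by GC content, and the members slope down with it, with all filled points at 54.7% GC or more.

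The trend of GC content and transcript length was then removed over those 8960 genes. None of the 79 members in the fit was called in either direction (Benjamini-Hochberg adjusted p under 0.05). Of all genes, 1% were called lower and 0.826% higher. Mll2 and Setd6, called lower as deposited, had no usable reference transcript and were not in the fit. At an unadjusted p under 0.05, 2 of the 79 members in the fit were lower and 3 were higher, where 5.07% of all genes were lower and 4.97% higher. The SD of the log2 ratio over the 79 members in the fit was 0.60 as deposited and 0.32 after the removal, and the median moved to 0.07. Of the 13 called members in the fit, 7 kept a negative value and 6 turned positive. Setd1b had the smallest adjusted p of the members, 0.127, with a log2 value of -0.83. That value used the GC content and length of the whole transcript, though the model covers a part of the gene. Setd1b was followed by Brd2 at 0.63 (adjusted p of 0.135), Chd3 at 0.86 (adjusted p of 0.239) and Smarca4 at -0.49 (adjusted p of 0.418). Sirt6 was at -0.76 and Hdac5 at -0.55 (adjusted p of 0.772 and 0.819), while Hdac7a was at 0.18 (adjusted p of 0.974). The origin of the trend was not tested.

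**Figure D4:**
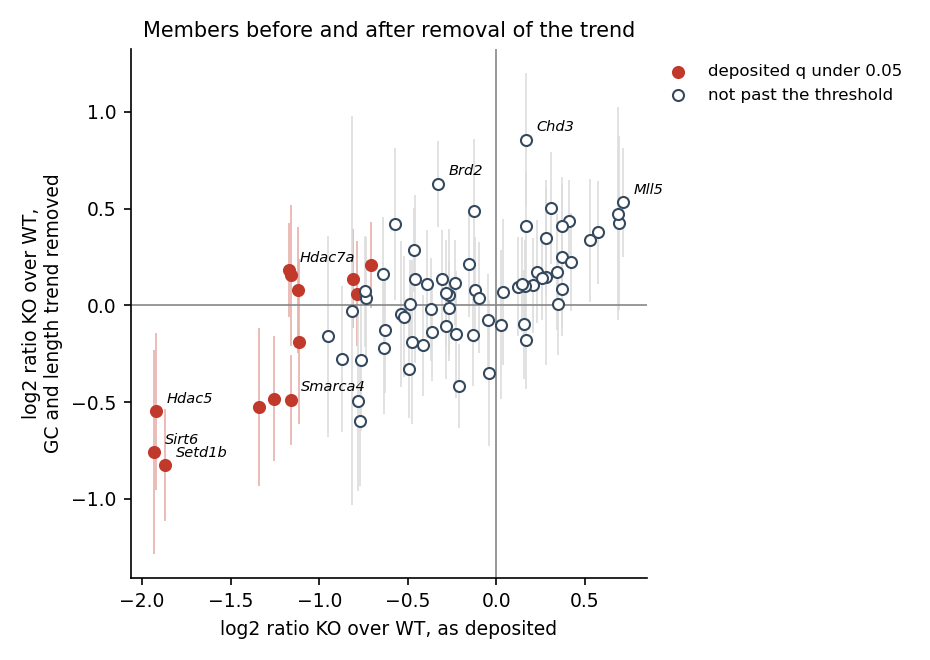
Log2 ratio (KO over WT) of 79 members as deposited (horizontal) and after removal of the trend with GC content and transcript length (vertical), with bars of 1 SE and filled points for members called at q 0.05 in the authors' deposited table. The filled points spread from -0.83 (Setd1b) to 0.21 (Smarcd2) on the vertical axis.

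The lysine demethylases and Tet enzymes, found under older names through RefSeq synonyms on the same chromosome, gave 22 further genes with Prmt9, of which 20 were tested. This group was added after it was seen that no Kdm or Tet symbol was in the table. Of the 16 tested Kdm genes, 2 were lower (12.5%) and none higher, with 4 lower and none higher at an unadjusted p under 0.05 in the authors' deposited table. Of all tested models 15.3% were lower and 1.79% higher, and 22.7% and 4.76% at that unadjusted p. The Kdm counts are thus near the background. Kdm6b (listed as Jmjd3), which removes the Polycomb mark from histone H3 lysine 27, stood at 22.8 FPKM in KO and 54.9 FPKM in WT (log2 ratio -1.27, SE 0.26, q = 5.27e-05 in the authors' deposited table). Kdm4b (listed as Jmjd2b), a demethylase of histone H3 lysine 9, stood at 9.30 FPKM in KO and 25.8 FPKM in WT (log2 ratio -1.47, SE 0.30, q = 2.34e-05 in the authors' deposited table). Kdm6a (listed as Utx), the X-linked paralogue of Kdm6b, stood at 57.6 FPKM in KO and 42.7 FPKM in WT (log2 ratio 0.43, q = 0.243 in the authors' deposited table). The transcripts of Kdm6b and Kdm4b had 59.6% and 58.7% GC, and that of Kdm6a 42.5%. Kdm6b and Kdm4b were at -0.12 and -0.38 after removal of the trend.

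Tet2, an enzyme that oxidises methylated cytosine, was higher in KO, at 7.94 FPKM in KO and 4.93 FPKM in WT (log2 ratio 0.69, SE 0.26, q = 0.0493 in the authors' deposited table). It was the only gene of these families called higher. After removal of the trend it was at 0.46, with an adjusted p of 0.598. Tet1 stood at 12.9 FPKM in KO and 12.0 FPKM in WT, and Tet3 at 31.7 FPKM in KO and 53.5 FPKM in WT (q = 0.934 and 0.0660 in the authors' deposited table).

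Partner genes of the same complexes were taken from a list by complex, and 94 of 98 were tested. Of these, 20 were lower (21.3%), 1 was higher and 73 did not pass, with a median log2 ratio of -0.06. Of all tested models 15.3% were lower and 1.79% higher, and of the 8960 genes with a usable transcript 19.3% were lower, so the share of partners is near the background. In Polycomb repressive complex 1, 6 of 15 tested genes were lower and none higher, with a median of -0.64. After removal of the trend the median of its 13 genes in the fit was -0.07. Ring1, a ubiquitin ligase of that complex, stood at 3.38 FPKM in KO and 9.56 FPKM in WT, and Phc2 at 15.8 FPKM in KO and 36.4 FPKM in WT. In complex 2 none of 8 passed, with 1 lower and 1 higher at an unadjusted p under 0.05 in the authors' deposited table. At that threshold 22.7% of all tested models were lower and 4.76% higher. Of the deacetylase corepressors 3 of 10 were lower, among them Rcor2 and Sin3b (Sin3b at 61.7 FPKM in KO and 156 FPKM in WT). In NuRD, Gatad2a, Mta1 and Mbd3 were lower, 3 of 7, with Mbd3 at 14.2 FPKM in KO and 46.8 FPKM in WT. Mbd3 was named here after its values were seen.

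The helicases Ruvbl2 and Ruvbl1 of the INO80 and SRCAP remodellers were lower, with Ruvbl2 at 8.57 FPKM in KO and 27.5 FPKM in WT. The Mll cofactors Men1 (19.7 FPKM in KO and 41.8 FPKM in WT) and Paxip1 were lower as well. Of the other histone methyltransferases, Dot1l and Ehmt2 (G9a) were lower. Trim28, a corepressor of zinc finger proteins, stood at 46.8 FPKM in KO and 105 FPKM in WT. The acetyltransferases Kat2a and Kat2b are paralogues and stood on opposite sides. Kat2a (listed as Gcn5l2) was lower, at 5.12 FPKM in KO and 11.6 FPKM in WT, and Kat2b (listed as Pcaf) was higher, at 21.4 FPKM in KO and 13.3 FPKM in WT (q = 0.00105 and 0.0306 in the authors' deposited table). No SWI/SNF partner (8 tested), ISWI partner (7 tested) or DNA methylation reader (5 tested) passed. At an unadjusted p under 0.05 in the authors' deposited table, there were 3 SWI/SNF partners and 1 DNA methylation reader lower and 1 ISWI partner higher. The shares of all tested models at that threshold were 22.7% lower and 4.76% higher.

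After removal of the trend no partner was lower and 3 were higher, among them Mbd2 at 1.08 (adjusted p of 0.00449) and Phf1 at 1.01 (adjusted p of 0.0346). None of the 3 passed as deposited.

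**Figure D5:**
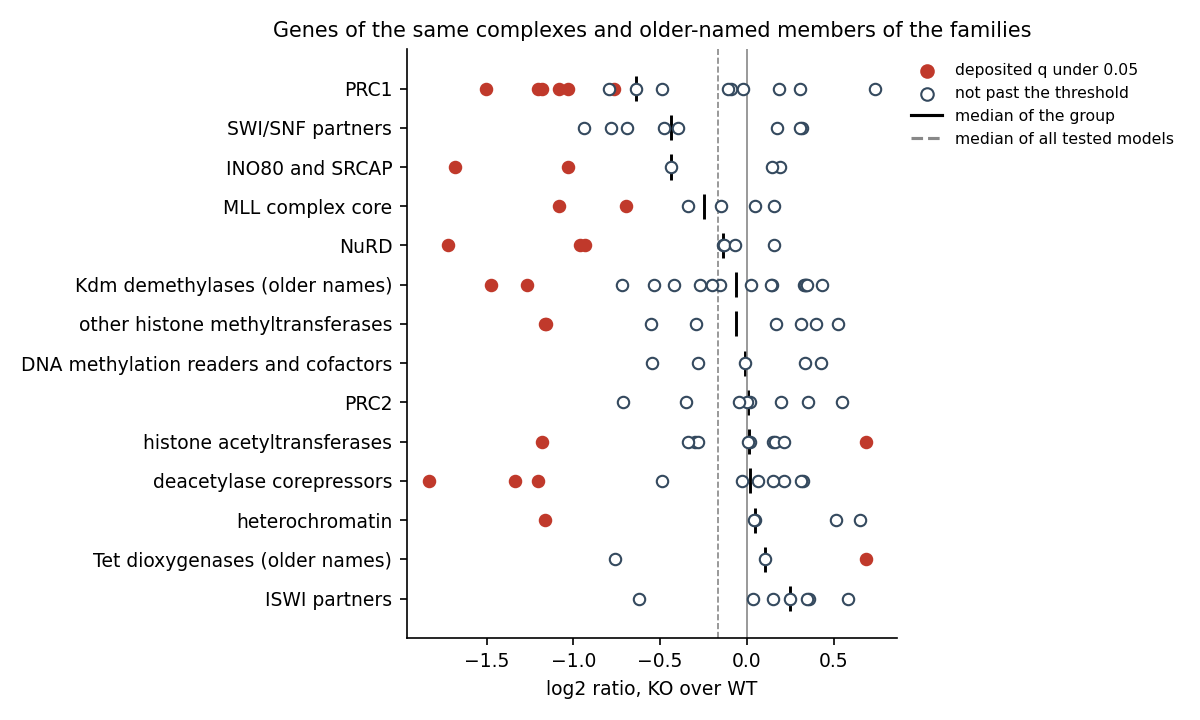
Log2 ratio (KO over WT) of tested partner genes by complex and of Kdm and Tet genes listed under older names, with filled points for genes called at q 0.05 in the authors' deposited table, a bar at each group's median, a solid line at 0 and a dashed line at the median of all tested models. Polycomb repressive complex 1 (PRC1) has the lowest median, -0.64, and the filled points right of 0 are Kat2b and Tet2.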

How the data were processed

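RNA-seq libraries of sorted double-positive thymocytes (3 KO, 3 WT) were aligned with TopHat2 to mm9, per the submitters' processing notes; no source used here names the program that made the gene table. The deposited table holds 1 pooled value per genotype, taken as FPKM from its layout and values since its header names no unit. It also holds a deposited log2 fold change (WT over KO, turned round here), a test statistic (a deposited score), and a deposited p-value and q-value. Depth per library is unknown, and whether the replicates are separate cultures or animals is not stated, so the p-values may measure technical spread. A call is a deposited q under 0.05. The implied standard error is the size of the log2 ratio over the test statistic.

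GC content, length and 3′ UTRs came from 1 GENCODE M21 transcript per gene (GRCm38), matched by symbol or RefSeq synonym on the same chromosome; mm9 positions were not converted. The trend was a robust regression on cubic splines of GC and log2 length with 5 pieces (statsmodels 0.14.6), over 8960 genes of at least 1 FPKM whose transcript was at most 1.2 times the model's span. Residuals over the implied standard error gave p-values, adjusted by the Benjamini-Hochberg method. The script was tested on data simulated from its own fitted trend with normal noise of the implied standard error. Such a test cannot show how the removal does where the real data depart from that model.

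Members, gene lists and partners were chosen with earlier results of these data known. Genes named were all called members, the most abundant and the most extreme of each family, members listed at 0 in 1 genotype, the 2 called partners with the smallest p per complex, and a set of genes of thymocyte biology. Some genes of these lists entered the counts but are not reported here by name. Mll1, Mll3, Setd1a, Smarcc1, Smarcc2, Smarca5, Arid1b, Arid2, Brd3, Chd1, Chd3, Suv420h1 and Kdm4b were added as paralogues, holders of seed matches or neighbours of a threshold. Alternatives were centring on the median of all models, the trend removed, a q of 0.01 and a floor of 1 FPKM. Others were pseudocounts of 1 and 0.1, rows summed, and rows that list several names left out.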

Additional observations from a re-analysis of the deposited data

How the results depend on the processing

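The 15 members lower in KO became 9 with ratios centred on the median of all tested models (a shift of 0.17). They became 8 at a deposited q under 0.01. With the trend of GC content and length removed, 0 of the 13 that were in the fit stayed called. Mll2 and Setd6 had no usable reference transcript, so their calls could not be checked that way. The count lower was 16 with models of at least 1 FPKM and 12 without rows that list several names. That setting left out Hdac5 (listed as HDAC5 and Hdac5), Prmt1 (listed with Mrmt1) and Setd6 (listed with BC067047). Several names in a row can be spellings of the same gene. The count was 17 with the older-named genes added and 14 with Setd6 from chromosome 8, a pair chosen after seeing the data. The count higher, 0, became 2 with centring (Mll3 at 0.74 and Mll5 at 0.88, adjusted p of 0.0409 and 0.0182) and 1 with the older-named genes (Tet2). Among the named partners, Ruvbl1 and Paxip1 lost the call with centring. The median log2 ratio, -0.28, was -0.12 with centring, 0.067 with the trend removed, -0.27 with a pseudocount of 1 and -0.29 for members of at least 1 FPKM.

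With the trend removed the direction turned, to log2 values of 0.29 for Arid1a, 0.63 for Brd2, 0.12 for Chd4, 0.18 for Hdac7a, 0.073 for Setd1a, -0.10 for Setd2, 0.060 for Sirt2, 0.081 for Sirt7, -0.18 for Smarca5, 0.0083 for Smarcc2, 0.14 for Smarcd1, 0.21 for Smarcd2 and 0.16 for Suv420h2. It also turned for Tet1 (-0.23), Tet3 (0.47), Phc2 (0.054), Mta1 (0.024), Rcor2 (0.27), Men1 (0.081), Ehmt2 (0.19) and Trim28 (0.092). The cause was not tested. Pseudocounts of 1 and 0.1 turned no named gene. No paired analysis was possible because the table holds 1 pooled value per genotype, and for the same reason no library could be left out.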
